A study of Mus musculus with 16 samples.

Results

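The genes described here are 7 markers of B cells and of the antibody-secreting plasma cells that arise from them: Ms4a1, Cd79a, Cd79b, Cr2, Pou2af1, Jchain and Mzb1. They were chosen by name, as every probe whose design accession maps to one of these symbols, with the older symbol Igj counted as Jchain. This gave 9 probes, which are 7 of the 17174 named genes on the array. RNA of brush-harvested airway epithelium from FvB mice was measured on 16 one-colour arrays in 4 groups of 4. The groups are ko_OVA (beta6 knockout, ovalbumin), ko_saline (beta6 knockout, saline), wt_OVA (wild type, ovalbumin) and wt_saline (wild type, saline). Beta6 is the epithelial integrin subunit encoded by Itgb6, and ovalbumin (OVA), an egg white protein, is used to provoke allergic airway inflammation. Sensitization by injection into the peritoneal cavity took place on days 1, 4 and 7, with 20 ug of OVA or with saline, in mice 6 to 8 weeks old. Intranasal challenge with 10 ug of OVA, or with saline, followed once a week for 9 weeks, and tissue was taken 24 h after the last dose. The knockout is not described as restricted to a cell type, and nothing says whether an array holds 1 mouse or several, so the p-values measure the spread between these samples.

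B cells carry an antibody on their surface as the B cell receptor, which signals through the paired chains CD79A and CD79B. CR2 (CD21), a complement receptor, lowers the threshold of that signal, and MS4A1 (CD20) is a membrane protein that B cells lose when they become plasma cells. POU2AF1 (OBF-1) is a transcriptional coactivator that works with octamer-binding factors in B cells and plasma cells, JCHAIN joins IgA and IgM into polymers that epithelium can carry into the airway lumen, and MZB1 is an endoplasmic reticulum protein that helps antibody chains to assemble.

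The promoters of Pou2af1 and Jchain are shown because the first encodes the octamer coactivator and the second a component of the secreted antibody. RefSeq sequences of GRCm38.p6, each from 250 bases before to 50 bases after the start of the gene, were at hand for 4 of the 7 members, namely Cd79a, Cr2, Jchain and Pou2af1. Capitals mark matches to TGCAAAT, the octamer motif ATGCAAAT without its first base, and to TGACGT, part of the cyclic AMP response element.
Pou2af1, chr9:51213440-51213739, plus strand: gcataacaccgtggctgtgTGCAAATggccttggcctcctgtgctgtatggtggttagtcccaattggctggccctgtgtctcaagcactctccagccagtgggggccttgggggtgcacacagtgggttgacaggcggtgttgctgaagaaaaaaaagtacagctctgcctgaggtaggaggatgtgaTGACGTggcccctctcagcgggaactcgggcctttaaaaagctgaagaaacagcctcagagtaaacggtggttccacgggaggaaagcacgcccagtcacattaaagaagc
Jchain, chr5:88527848-88528147, minus strand, read 5′ to 3′ along the gene: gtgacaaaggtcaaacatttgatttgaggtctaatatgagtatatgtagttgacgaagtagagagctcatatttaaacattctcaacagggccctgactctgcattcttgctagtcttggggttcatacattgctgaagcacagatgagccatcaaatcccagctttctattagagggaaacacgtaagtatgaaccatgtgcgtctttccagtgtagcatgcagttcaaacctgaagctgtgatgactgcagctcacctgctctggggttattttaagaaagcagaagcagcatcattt
Both strands were searched. The Pou2af1 window held TGCAAAT at 231 bases and TGACGT at 61 bases before the start, both on the gene's strand, and the other 3 windows held neither. Of all 32851 promoter windows of this length, 1.74% held ATGCAAAT, 4.02% held TGCAAAT, which every ATGCAAAT contains, and 7.51% held TGACGT.

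Arrays differed in brightness, with a 75th percentile of 78.0 intensity units on ko_OVA 4, the lowest, and of 793 on ko_saline 3, the highest, and in the share of probes well above background, which was 43.3% on ko_OVA 4 and 74.5% on wt_OVA 1. The epithelial markers Scgb1a1 (club cells), Foxj1 (ciliated cells) and Epcam were well above background wherever their spots were measured, with log2 levels of at least 8.41, 5.26 and 3.48. Itgb6, the targeted gene, gave signal on all arrays on 2 of its 3 probes, with levels of -1.71 to -0.73 in ko and -0.93 to -0.39 in wt on the brighter one, so it does not check the label of a single array; whether the probes lie in the deleted part is not known here. All levels are on the log2 scale and relative to the array's own 75th percentile, so that 0 is the signal that 75% of probes do not exceed. A common floor of -3.32 stands for anything dimmer. In tissue RNA of this kind, fewer cells of a type and less RNA per cell cannot be told apart. Of the 7 genes, Cd79b, Pou2af1, Jchain and Mzb1 were well above background on all 16 arrays, Ms4a1 on 6, Cd79a on 4, and each of the Cr2 probes on 1. Cd79a and Cr2 were not tested, which leaves 5 tested members. Ms4a1 was well above background on 3 arrays of ko_saline, 2 of wt_OVA, 1 of ko_OVA and 0 of wt_saline. It thus met the filter of 4 such arrays only through ko_saline, the group where it is highest. Its p-values, and its part in counts and medians of members, are therefore no support where ko_saline is compared. Levels are compared within a probe and not between genes.

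Ms4a1, the CD20 gene, was at the floor on arrays 1 to 4 of ko_OVA. In ko_saline it had 0.18, 0.40 and 0.81 on arrays 1, 2 and 3 and was at the floor on array 4, which was not above background. In wt_OVA it had 1.32 on array 1 and was at the floor on the other 3, and all 4 wt_saline arrays were at the floor. Only 4 of 16 arrays gave a level above the floor: 3 of ko_saline and 1 of wt_OVA. The group means were -3.32 in ko_OVA, -0.48 ± 1.91 (SD, n = 4) in ko_saline, -2.16 ± 2.32 in wt_OVA and -3.32 in wt_saline. The ranges of ko_saline and wt_OVA overlapped with every other group.

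Cd79b, a signalling chain of the B cell receptor, had -0.35, -0.94, -0.60 and -0.01 on the ko_OVA arrays. The ko_saline arrays had 1.41, 1.37, 1.58 and 0.05. The wt_OVA arrays had 2.07, -0.80, -0.53 and -0.41, and the wt_saline arrays -0.66, -0.45, -0.53 and -0.46. The arrays that carried Ms4a1 above the floor were also the 4 highest for Cd79b. The means were -0.48 ± 0.39 (SD, n = 4) in ko_OVA, 1.103 ± 0.71 in ko_saline, 0.09 ± 1.33 in wt_OVA and -0.53 ± 0.09 in wt_saline. The order of the means was thus ko_saline, wt_OVA, ko_OVA and wt_saline, of which the last 3 did not differ beyond the spread of wt_OVA. Every ko_saline array lay above every ko_OVA and every wt_saline array, whereas wt_OVA overlapped with each of the other groups.

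Pou2af1, the coactivator whose promoter is shown above, had 0.92, 0.01, 0.42 and 0.80 on the ko_OVA arrays. It reached 1.91, 1.87, 2.30 and 1.22 in ko_saline. The wt_OVA arrays had 2.003, -0.09, 0.09 and 0.40, and the wt_saline arrays 0.69, 1.13, 0.54 and 0.59. Again wt_OVA 1 and arrays 1 to 3 of ko_saline were the 4 highest, and ko_saline 4 came next. The means were 0.54 ± 0.41 (SD, n = 4) in ko_OVA, 1.82 ± 0.45 in ko_saline, 0.60 ± 0.95 in wt_OVA and 0.74 ± 0.27 in wt_saline. Ko_saline was highest, and the other 3 groups lay within 1 SD of each other.

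Cd79a and Cr2 stayed at the limit of detection. Cd79a, the partner chain of CD79B, was at the floor on all 16 arrays and well above background on ko_saline 1 and 3 and on wt_OVA 1 and 2. One Cr2 probe was well above background on wt_OVA 1 alone, at -3.07, and the other on wt_OVA 2 alone, at the floor. These genes have only an upper bound in the remaining samples.

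Jchain, the gene of the chain that polymerizes IgA and IgM, had 3.98, 1.84, 3.41 and 2.11 on the ko_OVA arrays and 3.31, 2.86, 3.21 and 2.71 on the ko_saline arrays. The wt_OVA arrays had 3.80, 1.28, 2.31 and 2.82, and the wt_saline arrays 2.87, 1.997, 2.37 and 2.70. The highest arrays were ko_OVA 1 and wt_OVA 1, and all groups overlapped. Their means were 2.84 ± 1.03 in ko_OVA, 3.02 ± 0.29 in ko_saline, 2.55 ± 1.05 in wt_OVA and 2.48 ± 0.39 in wt_saline (SD, n = 4 each). The second, dimmer Jchain probe was also highest on ko_OVA 1 (1.51), followed by ko_saline 1 (1.01) and wt_OVA 1 (0.95), and both probes were lowest on wt_OVA 2 (-1.24 on the second).

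Mzb1, the antibody assembly factor, had 0.10, -0.29, 0.14 and 0.16 on the ko_OVA arrays and 0.18, -0.20, 0.19 and -0.23 on the ko_saline arrays. The wt_OVA arrays had 0.68, -0.29, -0.17 and -0.06, and the wt_saline arrays -0.29, -0.41, -0.44 and -0.31. All 4 wt_saline arrays lay below all others, though narrowly: the lowest ko_OVA and wt_OVA arrays had -0.2892, against -0.2942 on the highest wt_saline array. The means were 0.03 ± 0.21 in ko_OVA, -0.02 ± 0.23 in ko_saline, 0.04 ± 0.44 in wt_OVA and -0.36 ± 0.07 in wt_saline (SD, n = 4 each), and the first 3 lay within 1 SD of each other.

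**Figure D1:**
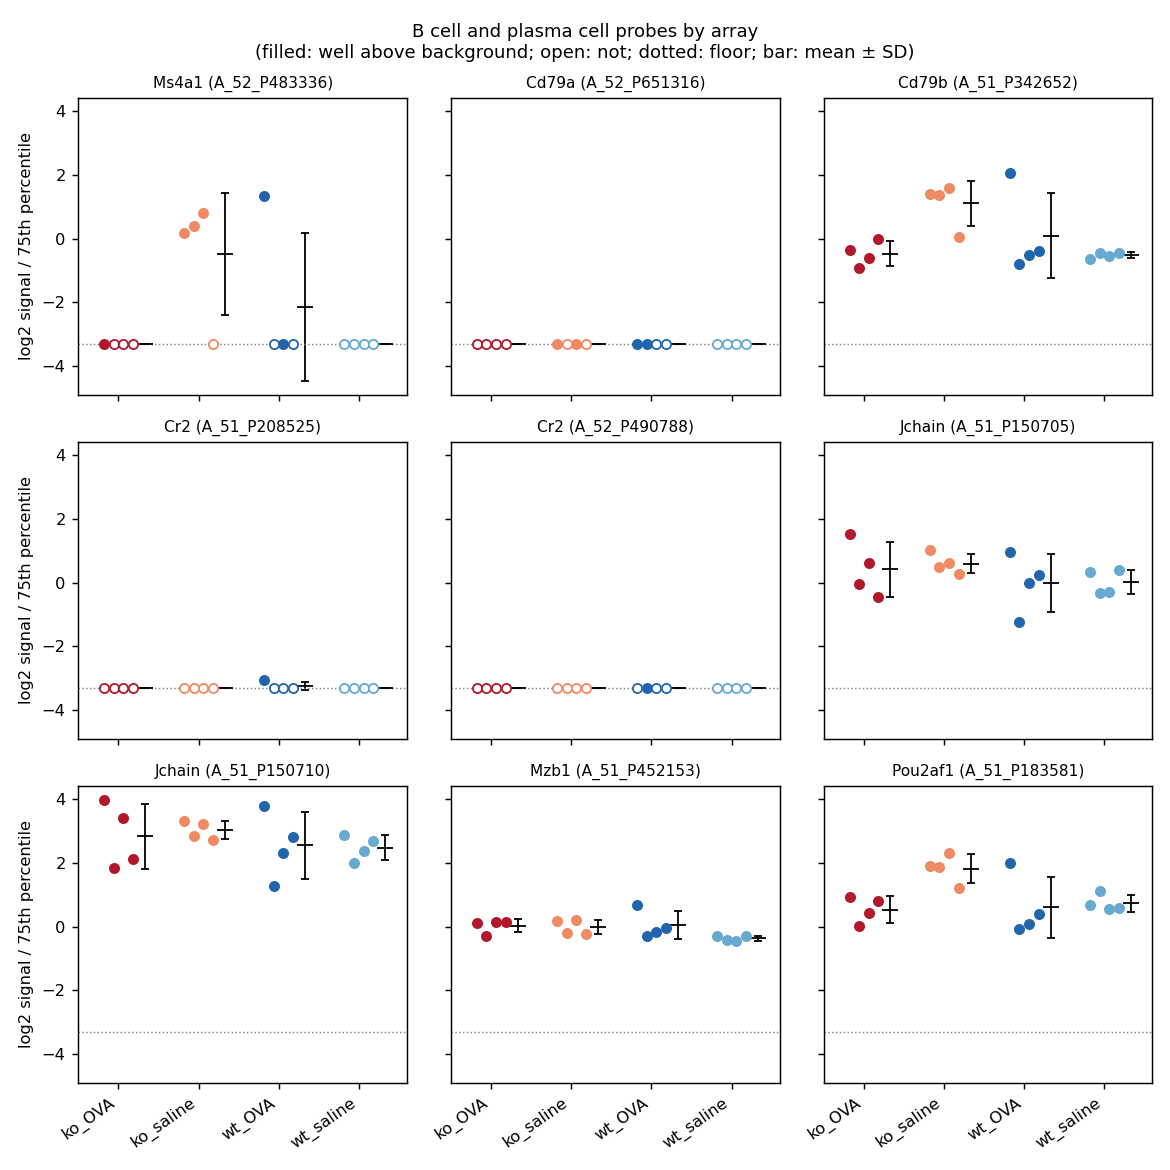
Log2 level on the scale of the text, where 0 is the 75th percentile of the array (y axis), for the 9 probes of the 7 genes, by group (x axis), with 1 point per array in the order of the replicate numbers, filled where the probe was well above background, and the mean ± SD (n = 4) as a black bar. In the panels of Ms4a1, Cd79b and Pou2af1, arrays 1 to 3 of ko_saline and array 1 of wt_OVA stand highest, whereas Jchain peaks on ko_OVA 1 and wt_OVA 1.

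How the loss of beta6 alone changes the epithelium was asked by setting ko_saline against wt_saline. No member passed limma's adjusted threshold of 0.05 over all 18566 genes tested, of which 0.162% passed. All 5 tested members were higher in ko on average, with a median log2 difference of 1.09, against 0.00 over all genes. That median counts Ms4a1, and the other members ran from 0.35 (Mzb1) to 1.63 (Cd79b). Groups did not overlap for 3 of the 5, Cd79b, Pou2af1 and Mzb1, each higher in ko_saline, and 4.05% of all genes did not overlap, 1.99% with ko higher. An unadjusted p under 0.05 was reached by Cd79b, by Pou2af1, by Ms4a1, which was tested only through ko_saline, and by 6.3% of all genes. Cd79b was higher by 1.63 ± 0.51 on the log2 scale, or 3.09-fold (SE, n = 4 and 4, limma unadjusted p = 0.00673, adjusted p = 0.526). Pou2af1 was higher by 1.09 ± 0.38, or 2.12-fold (unadjusted p = 0.0133, adjusted p = 0.635). Ms4a1 was higher by 2.83 ± 0.98 in the fit (unadjusted p = 0.0119, adjusted p = 0.622), a size that depends on the floor, since all wt_saline arrays and ko_saline 4 lie at it. It was 4.25 with a lower floor and 2.01 with normexp background correction and quantile normalization. Jchain differed by 0.54 ± 0.51 (adjusted p = 0.909) and Mzb1 by 0.35 ± 0.19 (adjusted p = 0.856).

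Slides hold arrays of several groups, and 3 of the 4 slides hold both ko_saline and wt_saline. Within these slides the log2 difference of Cd79b was 0.51 to 2.06 and that of Pou2af1 0.62 to 1.22, higher in ko on 3 of 3. For Ms4a1 it was 0 to 3.92, higher on 2 of 3. With the slide as a block Cd79b differed by 1.75 (adjusted p = 0.571).

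Lists of markers of other cells are given beside these genes, as the range over arrays of their summed linear level relative to the 75th percentile. The sum was 75.9 to 97.3 in ko_saline and 30.5 to 43.8 in wt_saline for 7 of 9 mast cell genes. For 7 of 10 endothelial genes it was 2.24 to 2.92 in ko_saline and 1.54 to 2.002 in wt_saline, and for 5 of 9 dendritic cell genes 0.92 to 1.26 in ko_saline and 1.70 to 2.12 in wt_saline. These 3 lists did not overlap between the groups, the dendritic cell list being lower in ko_saline, and 4.05% of single genes did not overlap. Array by array, the endothelial sum was highest of all 16 on wt_OVA 1 (3.16), where Ms4a1 was also highest. It was 2.24, 2.73 and 2.91 on arrays 1 to 3 of ko_saline, and 2.84 on wt_OVA 4, with Ms4a1 at the floor. The dendritic cell sum was 2.71 on wt_OVA 1 and 2.89 on wt_OVA 4. Within ko_saline the mast cell and endothelial sums were highest on array 4 (97.3 and 2.92), where Ms4a1 was at the floor. The mast cell sum was 85.4 to 130 in ko_OVA, where Ms4a1 was at the floor throughout. The T cell sum over 8 of 15 genes, 2.99 to 4.07 in ko_saline and 3.06 to 3.53 in wt_saline, overlapped. Of the T cell receptor genes, Cd3e was above the floor on 2 of 16 arrays. Cd3g and Cd3d were above it on all 16, at levels of at most -1.52 and -1.48. Fibroblast sums over 7 of 8 genes were 16.5, 13.7 and 15.7 on arrays 1 to 3 of ko_saline, which carry Ms4a1, and 6.22 on array 4, against 6.75 to 10.6 in wt_saline. On wt_OVA 1, which also carries Ms4a1, the fibroblast sum was 9.79, within the wt_saline range. On ko_OVA 3, with Ms4a1 at the floor, it was 13.7. Airway epithelium sums over 5 of 11 genes, 404 to 563 in ko_saline and 467 to 698 in wt_saline, overlapped. Of 10 tested epithelial genes, 9 were lower in ko after saline (median -0.30) and 8 higher with OVA in ko (median 0.29), and 0 were called. The macrophage (12.1 to 25.4 in ko_saline and 16.7 to 27.1 in wt_saline) and MHC class II (29.2 to 39.1 in ko_saline and 30.9 to 50.01 in wt_saline) sums overlapped. Their part in the differences of the B cell genes was not tested.

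The comparison of OVA with saline in ko asked how the knockout epithelium responds to allergen, and it shares the ko_saline arrays with the comparison above. Of the 5 tested members none passed the adjusted threshold, and 0.749% of all genes did. The median log2 difference of the members was -1.29, against 0.00 over all genes. That median counts Ms4a1, and the other members ran from -1.58 (Cd79b) to 0.04 (Mzb1). Cd79b and Pou2af1 did not overlap between the groups, both lower in ko_OVA, which held for 2.14% of all genes, and 5.23% did not overlap in either direction. An unadjusted p under 0.05 was reached by 3 of 5 members, among them Ms4a1, which was tested only through ko_saline, and by 9.73% of all genes. Cd79b had a log2 difference of -1.58 ± 0.51 (SE, n = 4 and 4, limma unadjusted p = 0.00813, adjusted p = 0.243) and Pou2af1 of -1.29 ± 0.38 (unadjusted p = 0.00467, adjusted p = 0.189). Ms4a1 had a difference of -2.83 ± 0.98 (adjusted p = 0.292), which again depends on the floor and was -3.36 with a lower floor and -1.85 with normexp and quantile normalization. Jchain (-0.19 ± 0.51) and Mzb1 (0.04 ± 0.19) had adjusted p = 1. Within the 3 slides that hold both groups, Cd79b had differences of -2.42 to -0.65 and Pou2af1 of -2.08 to -0.80, lower in ko_OVA on 3 of 3.

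One array of a group outside this comparison changes the calls here, through the spread that all 16 arrays share in the fit. Without wt_OVA 1 the log2 differences of Cd79b and Pou2af1 between ko_OVA and ko_saline were the same, and both passed, with limma adjusted p = 0.0384 for Cd79b and 0.0409 for Pou2af1. In a fit restricted to the ko arrays, which also lacks wt_OVA 1, neither passed (adjusted p = 0.259 for Cd79b and 0.222 for Pou2af1). Over all 26 alternatives their adjusted p ran from 0.0384 to 0.514 for Cd79b and from 0.0409 to 0.427 for Pou2af1. Without wt_OVA 1 the ko against wt differences after saline of these genes did not pass (adjusted p = 0.0703 for Cd79b and 0.205 for Pou2af1).

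The response of normal epithelium to allergen was asked by setting wt_OVA against wt_saline. None of the 5 tested members passed the adjusted threshold, against 2.61% of all genes. Mzb1 alone did not overlap between the groups, as did 9.28% of all genes, 4.87% with OVA higher. Its log2 difference was 0.40 ± 0.19 (SE, n = 4 and 4, limma unadjusted p = 0.0467, adjusted p = 0.293), and 16.5% of all genes reached an unadjusted p under 0.05. Ms4a1 had a difference of 1.16 ± 0.98 (adjusted p = 0.581) and Cd79b of 0.61 ± 0.51 (adjusted p = 0.578). The values rest on wt_OVA 1: without that array the difference of Mzb1 was 0.19, that of Pou2af1 -0.60 and that of Jchain -0.35, while Ms4a1 had no array above the floor in wt_OVA or wt_saline and Cd79b had a difference of -0.05. Jchain differed by 0.07 ± 0.51 (adjusted p = 0.970) on its brighter probe and by -0.04 on the other, and Pou2af1 by -0.13 ± 0.38 (adjusted p = 0.896).

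Between ko and wt after OVA no member passed (0.145% of all genes did), none had groups that did not overlap (2.37% of all genes did) and none reached an unadjusted p under 0.05 (5.08% of all genes did). The log2 differences were -1.16 ± 0.98 for Ms4a1, -0.56 ± 0.51 for Cd79b, -0.07 ± 0.38 for Pou2af1, 0.28 ± 0.51 for Jchain and -0.01 ± 0.19 for Mzb1 (SE, n = 4 and 4), with adjusted p of at least 0.897. Without wt_OVA 1, that of Ms4a1 was 0, that of Cd79b 0.10, that of Pou2af1 0.40, that of Jchain 0.70 and that of Mzb1 0.20.

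The interaction asked whether OVA acts differently in ko and wt, as the difference in ko minus the difference in wt. No member and no gene of the array (0%) passed, whereas 3.06% of all genes and 2 of 5 members had an unadjusted p under 0.05. These were Cd79b, at -2.19 ± 0.73 (SE, n = 4 in each of 4 groups, limma unadjusted p = 0.00915, adjusted p = 0.993), and Ms4a1, at -3.99 ± 1.39 (unadjusted p = 0.0121, adjusted p = 0.993). Ms4a1 was tested only through ko_saline. Pou2af1 had -1.15 ± 0.54 (unadjusted p = 0.0517), Mzb1 -0.36 ± 0.26 and Jchain -0.25 ± 0.72. Without wt_OVA 1 the interaction was -2.83 for Ms4a1, -1.53 for Cd79b, -0.69 for Pou2af1, -0.15 for Mzb1 and 0.16 for Jchain.

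**Figure D2:**
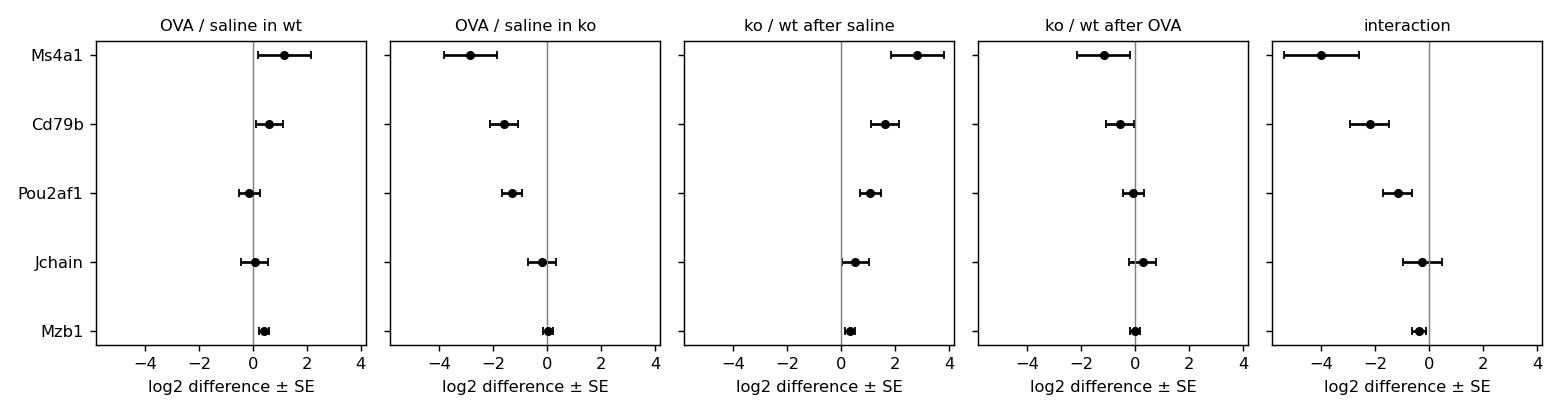
Log2 difference ± SE (x axis) of the 5 tested members (y axis) in the 4 comparisons and the interaction, from the limma fit over 16 arrays. Ms4a1, Cd79b and Pou2af1 lie right of 0 for ko against wt after saline and left of 0 for OVA against saline in ko, where both comparisons use the ko_saline arrays, and Jchain and Mzb1 lie nearer to 0.

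Members also differed in which arrays they tracked. Cd79b fell into a cluster of 4 arrays between 1.37 and 2.07 and 12 arrays between -0.94 and 0.05, so its correlations over all 16 arrays, used further on to rank genes by likeness, carry no test. Within the 12, Pearson's r with Pou2af1 was 0.75, with Mzb1 0.37 and with Jchain 0.30. Jchain and Mzb1 did not split into 4 and 12 arrays, but for Mzb1 wt_OVA 1 had 0.68 and the next array 0.19. Jchain and Mzb1 correlated over 16 arrays with r = 0.68 (permutation p = 0.0038, 0.0076 after Benjamini-Hochberg adjustment over 6 pairs) and Spearman's rho = 0.61 (permutation p = 0.0142, adjusted 0.0284). The permutations did not keep arrays within their groups. Without wt_OVA 2 and ko_OVA 1, the arrays farthest from the Jchain median, r was 0.72 with wt_OVA 1 still in. Within the 12 arrays, which leave wt_OVA 1 out, it was 0.53. Over all 16 arrays Mzb1 had r = 0.69 with Cd79b and 0.54 with Pou2af1, and within the 12 it had 0.06 with Pou2af1. For deviations from the group means over 16 arrays, r of Mzb1 was 0.75 with Jchain and 0.89 with each of Cd79b and Pou2af1. Which member Mzb1 tracks most closely thus depends on the arrays and the measure used. Each slide holds only 4 arrays, too few for a correlation within it.

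**Figure D3:**
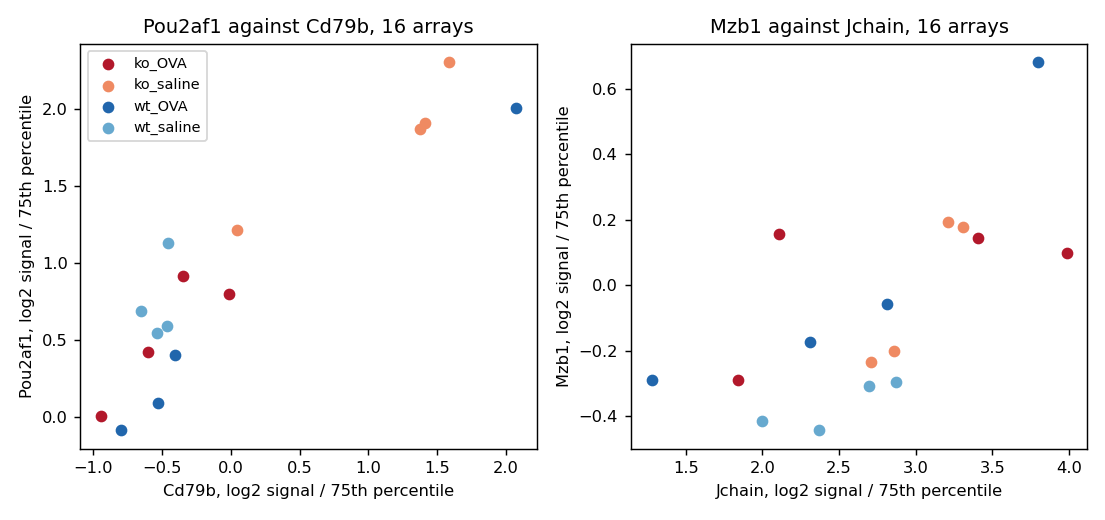
Levels on 16 arrays as log2 signal relative to the 75th percentile, Pou2af1 (y) against Cd79b (x) on the left and Mzb1 (y) against Jchain (x) on the right, coloured by group. The left panel has 4 arrays with Cd79b above 1, 3 of ko_saline and 1 of wt_OVA, apart from 12 others. The right panel shows no such split into 4 and 12, but for Mzb1 wt_OVA 1 (0.68) lies above the next array (0.19).

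The genes most like each member were found as the 3 with the highest Pearson's r over 16 arrays among 12327 genes. These points share their array's RNA and scaling, and r over clustered values rests on the arrays that stand apart. For Cd79b they included Cxcr5, the chemokine receptor that takes B cells into follicles (r = 0.97), and Ms4a1 (0.97). Cxcr5 had -0.26, -0.52 and 0.25 on arrays 1 to 3 of ko_saline and 0.37 on wt_OVA 1, was at -3.06 on ko_OVA 4 and at the floor on the other 11. For Pou2af1 they were Cd79b (0.93), Cxcr5 (0.88) and Icam2, an adhesion molecule (0.87). For Jchain they were Vti1b, a vesicle fusion protein (0.77), Dpt, a protein of the extracellular matrix (0.72), and Mzb1 (0.68). For Mzb1 they were Cd274, the ligand PD-L1 (0.86), Acap1 (0.85) and Gimap1, a GTPase of lymphocytes (0.84). No gene was among the 3 nearest of both Cd79b and Jchain.

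Among the 10 genes nearest to Cd79b or Pou2af1 were also Icam2, Prg4, Cd5l and Vsig4, which macrophages of the peritoneal and pleural cavities are known to express in mice. Other nearest genes were Cd2, Arhgap15, Tspan32 and Msr1 for Cd79b, with r of 0.93 to 0.95. For Pou2af1 they were Ednrb, Hspb2, Zbtb32 and Wnt2, with r of 0.86 to 0.87, close to the 0.86 of Vsig4. A list of 10 genes of cavity macrophages, which holds none of these others, was drawn up after these values were seen, and it received no test. Prg4, which encodes lubricin, had 0.58, 1.496 and 2.04 on arrays 1 to 3 of ko_saline and 0.72 on wt_OVA 1 and was at the floor on the other 12. Icam2 had 0.71, 1.45 and 2.33 on those ko_saline arrays and 0.96 on wt_OVA 1, and between the floor and -1.71 on the other 12. Vsig4, a complement receptor of resident macrophages, left the floor on the same 4 arrays, at -2.54 to -1.85. Cd5l, a secreted macrophage protein, had -0.82, -0.92 and 0.92 in ko_saline and 0.22 on wt_OVA 1, besides -2.80 on wt_OVA 2.

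Selp left the floor on those 4 arrays only, at -2.63 to -1.27. Timd4, a receptor for dying cells, left it on arrays 1 to 3 of ko_saline only, at -2.64 to -1.93. Cxcl13, the chemokine that binds CXCR5, had its 4 highest values there as well, -2.32, -2.80 and -2.48 in ko_saline and -3.01 on wt_OVA 1. The remaining 3 genes of the list, Gata6, Alox15 and F5, were above the floor on all 16 arrays and did not have their 4 highest values on those 4 arrays. The summed linear level of the list ran from 6.40 to 10.14 in ko_OVA, 5.35 to 18.9 in ko_saline, 9.14 to 12.6 in wt_OVA and 6.49 to 8.33 in wt_saline. Of 6 mesothelial genes listed in the same way, Wt1, Lrrn4 and Bnc1 were at the floor on all 16 arrays, and Upk3b left it on ko_saline 2 (-1.46) and wt_OVA 1 (-2.45) only. Msln, at 8.00 to 9.56 on the 14 arrays where its spots were kept, and Krt19, at 6.94 to 7.66, were bright on every array measured. The part of such cells in the levels of the B cell genes was not tested.

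Striated muscle genes were highest on 3 of the same 4 arrays. Their summed linear level over 9 genes was 0.95 to 7.97 in ko_OVA and 1.41, 403, 169 and 21.5 on the ko_saline arrays. It was 272, 7.34, 1.05 and 1.87 on the wt_OVA arrays and 1.81 to 50.8 in wt_saline. The 3 highest sums of all 16 arrays were those of ko_saline 2, wt_OVA 1 and ko_saline 3, with 50.8 next, whereas ko_saline 1 had 1.41. The part of muscle in the levels of the B cell genes was not tested.

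**Figure D4:**
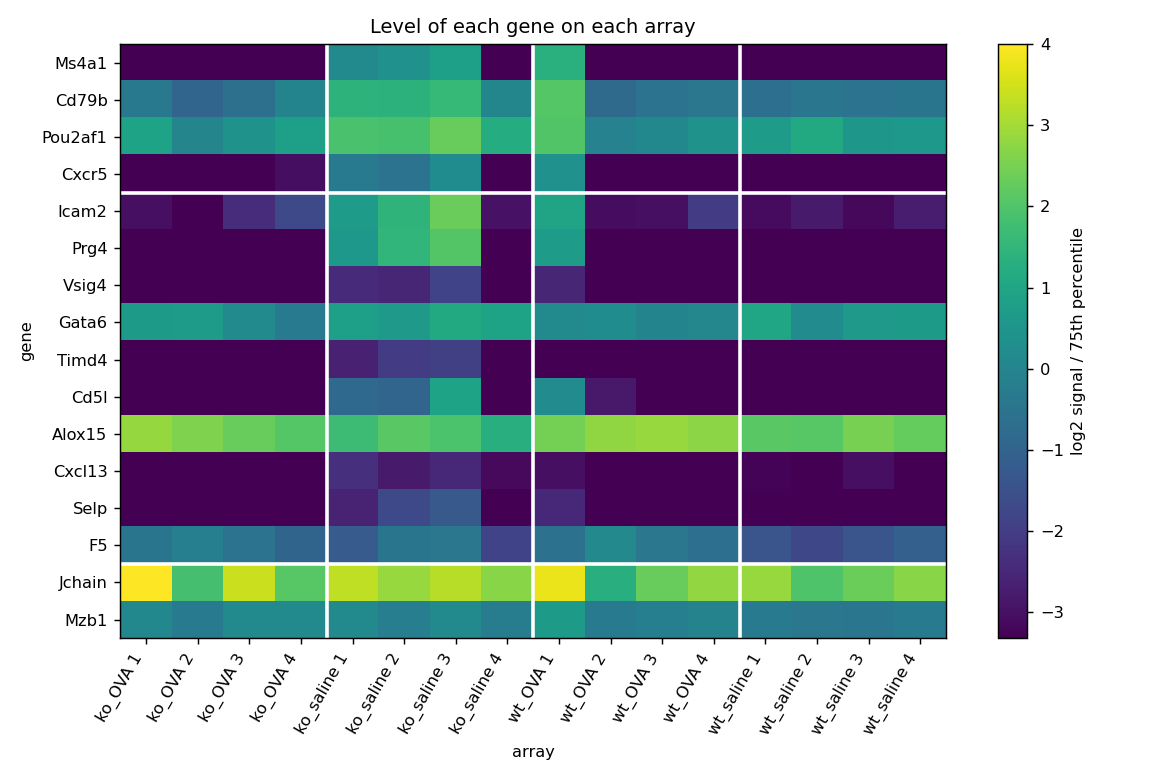
Log2 signal relative to the 75th percentile (colour, from the floor to 4) of 16 genes (rows) on each of 16 arrays (columns, by group). The upper rows hold 3 members with Cxcr5, the middle rows 10 genes of cavity macrophages listed after values were seen, and the lower rows Jchain and Mzb1. Arrays 1 to 3 of ko_saline and wt_OVA 1 are bright in the upper rows and for Icam2, Prg4 and Cd5l, whereas Gata6, Alox15 and F5 show no such pattern.

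Further genes of B cell biology were examined in 8 lists. Of 17 tested genes of the B cell receptor and its signalling, none passed in any comparison. The smallest p in ko against wt after saline belonged to the kinase Syk, at 0.82 ± 0.31 (limma adjusted p = 0.683), and to the inhibitory receptor Fcgr2b, at 1.05 ± 0.41 (adjusted p = 0.711). The median of the list there was 0.08. Of 12 tested genes of the B cell surface none passed either, with Cxcr5 2.35 ± 0.80 higher in ko after saline (adjusted p = 0.608) and at -2.29 ± 0.80 for OVA in ko (adjusted p = 0.298). Ly6d, next by p in both comparisons, went the other way, at -0.52 ± 0.19 (limma adjusted p = 0.651) and 0.49 ± 0.19 (adjusted p = 0.382). The medians of the list were 0.16 and -0.16. Both differences of Cxcr5 depend on the floor.

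Of 10 tested B cell transcription factors, Irf8, which macrophages and dendritic cells also use, was the only one to pass. With OVA in wt, where 2.61% of all genes were called, it rose by 0.77 ± 0.19 (adjusted p = 0.0425). Its levels were 1.52, 1.16, 0.99 and 1.55 in wt_OVA and 0.35, 0.32, 0.72 and 0.75 in wt_saline. The call was lost without any one of wt_OVA 1, 2 and 4, wt_saline 1, 2 and 4, ko_OVA 2 and 3, and ko_saline 1 and 3 (adjusted p up to 0.134). It was also lost under 6 of 10 other alternatives (adjusted p up to 0.370), among them the slide, array position and replicate number as blocks. Pax5, which fixes B cell identity, was well above background on 2 of 16 arrays.

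Of 15 tested genes of plasma cell differentiation and secretion, 5 rose with OVA in wt, where 2.61% of all genes were called, and none fell, with a median of 0.34 against 0.00 over all genes. These were Creld2, Derl3, Fkbp11, Sec11c and Edem1, which serve protein folding, processing or disposal in the endoplasmic reticulum and are used by secretory cells in general. Derl3 had 1.54, 1.52, 1.81 and 2.15 in wt_OVA and -1.96, -0.38, -0.59 and 0.52 in wt_saline, a rise of 2.36 ± 0.42 (limma adjusted p = 0.00811). Creld2 rose by 1.24 ± 0.14 (adjusted p = 0.00291) over the 3 arrays of each group on which its spots were kept. Fkbp11 rose by 1.55 ± 0.30 (adjusted p = 0.0130), Sec11c by 0.64 ± 0.13 (adjusted p = 0.0155) and Edem1 by 0.89 ± 0.19 (adjusted p = 0.0259). The calls of Derl3 and Creld2 held with any 1 array left out. That of Fkbp11 was lost without wt_saline 1, that of Sec11c without wt_saline 1 or 2, and that of Edem1 without any one of wt_OVA 1 and 4 and wt_saline 1, 2 and 3 (adjusted p up to 0.0879). With the position of the array on its slide as a block, Derl3 (adjusted p = 0.142), Fkbp11 (0.172), Sec11c (0.166) and Edem1 (0.180) lost their calls and Creld2 kept its own. Edem1 also lost it with the slide (0.0759) and the replicate number (0.0531) as blocks. In a fit restricted to the wt arrays, Derl3 (0.0779), Fkbp11 (0.0518) and Edem1 (0.0857) lost theirs.

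With OVA in ko, 3 of the 15 rose, where 0.749% of all genes were called, and none fell, with a median of 0.37 against 0.00 over all genes. Creld2 rose by 1.20 ± 0.16 (adjusted p = 0.0109) over 2 ko_OVA and 3 ko_saline arrays, Fkbp11 by 1.42 ± 0.30 (adjusted p = 0.0434) and Sec11c by 0.59 ± 0.13 (adjusted p = 0.0491). The call of Creld2 was lost without ko_OVA 2 or ko_saline 2 (adjusted p up to 0.0952). Those of the others were lost in 13 of 16 fits with 1 array left out for Fkbp11, all but those without wt_OVA 2 or 4 or ko_OVA 1, and in 14 of 16 for Sec11c, all but those without ko_saline 2 or ko_OVA 4. Of 10 other alternatives, 5 ended the call of Creld2 in ko, 7 that of Fkbp11 and 8 that of Sec11c. When arrays were scaled by their median, none of the calls of these 5 genes held in either genotype (adjusted p up to 0.493 in wt and 0.876 in ko). Plasma cell markers differed in level: Tnfrsf17 (BCMA) left the floor on 3 of 16 arrays and Prdm1 (BLIMP-1) on 1. The members Jchain, Mzb1 and Pou2af1 were above it on all 16. Sdc1 (CD138), which epithelium also makes, was between 4.47 and 5.17 on all arrays.

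Only 2 of the 18 immunoglobulin chain genes listed, Vpreb1 and Vpreb3, had a matched probe, and neither passed in any comparison. The heavy and light chain loci are therefore not analysed here. Of 5 tested survival factors and receptors none passed. Tnfsf13b, which encodes the B cell survival factor BAFF, had a difference of 0.35 ± 0.24 with OVA in wt (adjusted p = 0.508). Of 11 tested genes of B cell attraction none passed, and Cxcl13 had a difference of -0.63 ± 0.15 with OVA in ko (adjusted p = 0.0699) at levels close to the floor.

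Of 6 tested genes of antibody transport, 1 was called with OVA in wt, where 2.61% of all genes were called. Fcgrt, the neonatal Fc receptor for IgG, fell there by 0.90 on the log2 scale (SE 0.20, adjusted p = 0.0264). It had 1.30, 1.88, 0.66 and 1.47 in wt_OVA and 2.10, 2.46, 2.15 and 2.21 in wt_saline, and its call was lost without any one of wt_OVA 1 and wt_saline 1, 2 and 4 (adjusted p up to 0.0946). It was also lost under 3 of 10 other alternatives, with adjusted p = 0.0538 with the slide and 0.162 with the array position as a block. Pigr, the receptor that carries polymeric antibody with its J chain across epithelium, had 4.57, 5.27, 5.26 and 5.44 in ko_OVA and 4.23, 4.56, 4.25 and 4.68 in ko_saline, a difference of 0.70 ± 0.25 (adjusted p = 0.301). Fcamr, a receptor for IgA and IgM, had 0.22, 1.05, 0.26 and 1.49 in ko_OVA and -0.98, -0.78, -1.09 and -0.16 in ko_saline. Those groups did not overlap, as was so for 5.23% of all genes, and the difference of 1.51 ± 0.33 missed the threshold (adjusted p = 0.0521).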

How the data were processed

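Per the labels' protocols, 0.5 ug of RNA was labelled with Cy3 for each of 16 one-colour mouse arrays. The scanner files hold processed signal intensity after background subtraction, as deposited, with flags per spot, from Feature Extraction 10.5.1.1 per the file headers (10.1 per the submitters' processing notes). Log2 values of the same arrays were deposited as a series table, whose normalization is not given in the sources used here. No mean spot signal was at hand, so the median stood in for it.

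Control and outlier-flagged spots were left out and repeated spots averaged. Each array was scaled to its own 75th percentile, floored at -3.32 on the log2 scale (the lowest signal well above background, at its highest among arrays), and log2 transformed. The filter kept 25615 of 41174 probes, those well above background on 4 or more arrays. The brightest probe stood for a gene, and genes at the floor everywhere were not tested, which left 18566. Symbols came from RefSeq accessions (24836 probes), and the arrays were designed on another build than the promoters. All arrays were fitted in limma 3.58.1 (R 4.3.3), 1 mean per group, with Benjamini-Hochberg adjustment at 0.05, checked on simulated data. Correlations used 100000 permutations, two-sided.

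Alternatives were median scaling, normexp with quantile normalization, a lower floor, no filter on dim probes, the mean of a gene's probes, slide, array position and replicate number as blocks, only the groups compared, the series table values, and each array left out. Whether replicate numbers pair the arrays was not settled: 8 of 24 same-numbered pairs had correlated deviations over 0.1. The mean r was 0.037 for pairs with the same number and -0.012 for other pairs. The members and lists were chosen with earlier results of these data known. The text names all members, called genes of the lists or the 2 with the smallest p (a selection of them), and the 3 genes most like each member, of which 1 is not reported here. Genes of cavity macrophages were named after their values were seen. The number of arrays limits the precision.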

Additional observations from a re-analysis of the deposited data

Results flagged for a closer look

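In 6 of 23 groups of a member probe whose arrays differed, 1 array stood apart from the other 3 by Dixon's test, which chance alone does in about 1 of 20 groups. The groups are not independent, since members share arrays, and the count depends in part on the floor. For Ms4a1 and Cr2 in wt_OVA the other 3 arrays lie at the floor, which puts the ratio at its highest, and the low Ms4a1 array of ko_saline is itself at the floor. In wt_OVA, array 1 stood high for Ms4a1 (1.32, the others at the floor), Cd79b (2.07, next -0.41) and a Cr2 probe (-3.07, the others at the floor). In ko_saline, array 4 stood low for Ms4a1 (-3.32, next 0.18) and Cd79b (0.045, next 1.37). In ko_OVA, array 2 stood low for Mzb1 (-0.29, next 0.10).

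Cd79a and Cr2 enter no comparison, and some unfloored values of theirs lay above every wt_saline array where the probe was well above background. Cd79a had -4.24 on ko_saline 1 and -3.36 on wt_OVA 1, against at most -4.31 in wt_saline, but -4.96 on ko_saline 3 and -5.38 on wt_OVA 2, where it was also well above background. Cr2 had -3.07 on wt_OVA 1, against at most -4.15 in wt_saline, while its other probe had -4.70 on wt_OVA 2, against at most -4.53 in wt_saline.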

How the results depend on the processing

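No member was called in any comparison under the 10 alternatives other than leaving out an array (9 for the interaction), nor with 1 array left out, except that 2 members were called for OVA against saline in ko without wt_OVA 1; the range with 1 array left out was thus 0 to 2 there and 0 elsewhere. Members' differences that changed sign were uncalled in both fits, and the widest moves were those of Jchain with array position as a block (-0.57 against 0.07 for OVA in wt, -0.19 against 0.54 for ko against wt after saline) and of Cd79b without wt_OVA 1 (-0.05 against 0.61 for OVA in wt, 0.10 against -0.56 for ko against wt after OVA). The ko against wt difference of Ms4a1 after saline was 4.25 with a lower floor and 2.01 with normexp. With the replicate block, that of Cd79b was 1.63 (adjusted p = 0.538), and 7 of 16 arrays correlated best with their own number.

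Genes called over the whole array numbered 485 (94 to 531 under other alternatives, 235 to 543 with 1 array left out) for OVA in wt and 139 (7 to 156, 69 to 168) for OVA in ko. They numbered 30 (15 to 55, 25 to 47) for ko against wt after saline, 27 (7 to 38, 25 to 31) after OVA and 0 (0 to 1, 0 to 3) for the interaction. Median scaling shifted the median of all genes by -0.25 for OVA in wt, 0.32 for ko against wt after OVA and 0.28 for the interaction. Dim probes limit Ms4a1, Cd79a and Cr2 to bounds on most arrays.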
